A study of Homo sapiens with 8 samples.

Results

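The SRSF, HNRNP and RBM families are RNA-binding proteins that shape pre-mRNA splicing, and their own transcripts were examined for N6-methyladenosine (m6A). All m6A peaks whose gene name starts with SRSF, HNRNP or RBM were taken, leaving out the m6A writer components RBM15 and RBM15B, the m6A reader HNRNPA2B1 and pseudogene names. This gave 133 of 28949 peaks, 60 of 13219 in DF2 siRNA cells and 73 of 15730 in control cells. They belonged to 51 of 10577 genes, of which 41 had a peak after DF2 siRNA and 50 in control cells. The families comprise 6 SRSF, 17 HNRNP and 28 RBM genes here.

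SR proteins (SRSF) carry an RNA-recognition domain and a tail rich in arginine and serine, and mostly favour the inclusion of exons by binding exonic enhancers. Heterogeneous nuclear ribonucleoproteins (HNRNP) coat nascent RNA and often act as splicing repressors, and several also set mRNA stability in the cytoplasm. The RBM genes are a looser group named for an RNA-binding motif and include spliceosome subunits, nuclear decay adaptors and translation regulators. m6A is the methylated adenosine of mRNA, concentrated near stop codons and in long exons, and YTHDF2 (DF2) is a cytoplasmic reader that brings methylated mRNA to decay.

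U2OS is an established human osteosarcoma line. Cells were given DF2 siRNA or served as controls, RNA of the cytoplasm was fragmented to about 100 nt, and fragments with m6A were pulled down with an antibody. For each condition there were 2 m6A libraries and 2 input libraries, 8 in all, and the siRNA libraries carry the labels #1 and #2, which leave unsaid if the siRNAs differed. The labels do not say what the control cells received. The labels tie 1 peak list to both m6A libraries of a condition, so no value has a replicate, no p-value is given, and the depth of the libraries is unknown. Being in a list also depends on how much of a transcript was sequenced, so a missing peak and a weakly expressed transcript cannot be told apart. Fold enrichment, −log10 value and score are the authors' values per peak and are given side by side as listed. A percentile is the share of peaks of the same list with a lower fold enrichment. Each share has an exact (Clopper-Pearson) binomial interval at 95%, which covers counting error only.

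Only the start of a transcript could be read in sequence here, from the RefSeq table of gene starts (GRCh38.p14). The starts below are shown because a peak of both lists covers them and because they hold GGAC, the common core of the m6A consensus, given in capitals and written as DNA from 5′ to 3′.
RBM14, chr11:66616630-66616659, plus strand: attcctgaggaGGACtgccggtcgttcgga
RBM14, chr11:66616644-66616673, plus strand: ctgccggtcgttcGGACgtcttgcctgtcg
SRSF11, chr1:70205707-70205736, plus strand: cgcctgggctggaGGACagagaagcctttt
The core begins at base 12 and at base 28 of the RBM14 transcript and at base 25 of the SRSF11 transcript. RBM14 encodes a paraspeckle protein and transcriptional coactivator, and SRSF11 is an SR protein found in nuclear speckles. GGAC was searched on the transcript strand in the first 50 bases, where it occurred in 18.9% of all 35116 gene starts and in 22.3% of the 2480 starts whose first 50 bases a peak of their own gene touched. Of 60 starts listed for the members, 18 in 16 genes were touched by a peak of the same gene. The interval of this share was 18.8 to 43.2%, and the share of all starts was 7.06%. Members were chosen for having a peak, while all starts also cover genes without one and genes these cells may not express. The selection alone raises the share of the members, so no excess can be read from this comparison. GGAC stood in 4 of these 18 starts, those of RBM14, of the readthrough RBM14-RBM4 that shares its start, of SRSF11 and of SRSF6. In SRSF6 the core lay before the first base of the peak and not in it. A match does not show which base is methylated, and the first 50 bases are a small part of each peak.

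YTHDF2, the targeted gene, had 1 peak in each list, at fold enrichment 52.3 (score 185) in DF2 siRNA cells and 124 (score 4226) in control cells. Peaks do not measure expression, so they check the cell type only in part. Of the osteoblast and osteosarcoma markers, RUNX2 and COL1A1 had a peak in both lists, as did the epithelial marker KRT8 and the blood marker CD14.

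Transcripts of these families often carried m6A peaks, and mostly the same ones in both conditions. Of 88 RefSeq protein-coding genes with such names, 50 had a peak in either list, 56.8% (45.8 to 67.3%), against 39.6% of all 20056 protein-coding symbols. By family these were 6 of 12 SRSF, 16 of 25 HNRNP and 28 of 51 RBM genes, and HNRNPUL2-BSCL2, which RefSeq does not class as coding, was the remaining member. The 39.6% also covers genes these cells may not express, and expression was not matched. Of 61 splicing genes outside these families, 34 had a peak in either list, so the share is not shown to be particular to the families. Of the 51 members, 40 had a peak in both lists, 78.4% (64.7 to 88.7%), against 75.2% of all 10577 genes. HNRNPD had a peak in DF2 siRNA cells only, 1.96% of members against 5.73% of all genes. A peak in control cells only was found in 10 members, 19.6% against 19.1% of all genes. These shares of the full lists were near those of all genes. With the lists made equally long by dropping the control peaks of lowest fold enrichment, 6 members were in control only. Such a cut can only lower that number, and the share of all genes was not computed for that setting. No peak under their own symbol was found for SRSF1, SRSF2, SRSF3, SRSF7, SRSF9 and SRSF12, nor for HNRNPC, HNRNPK, HNRNPAB and HNRNPH1, in the lists used here.

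**Figure D1:**
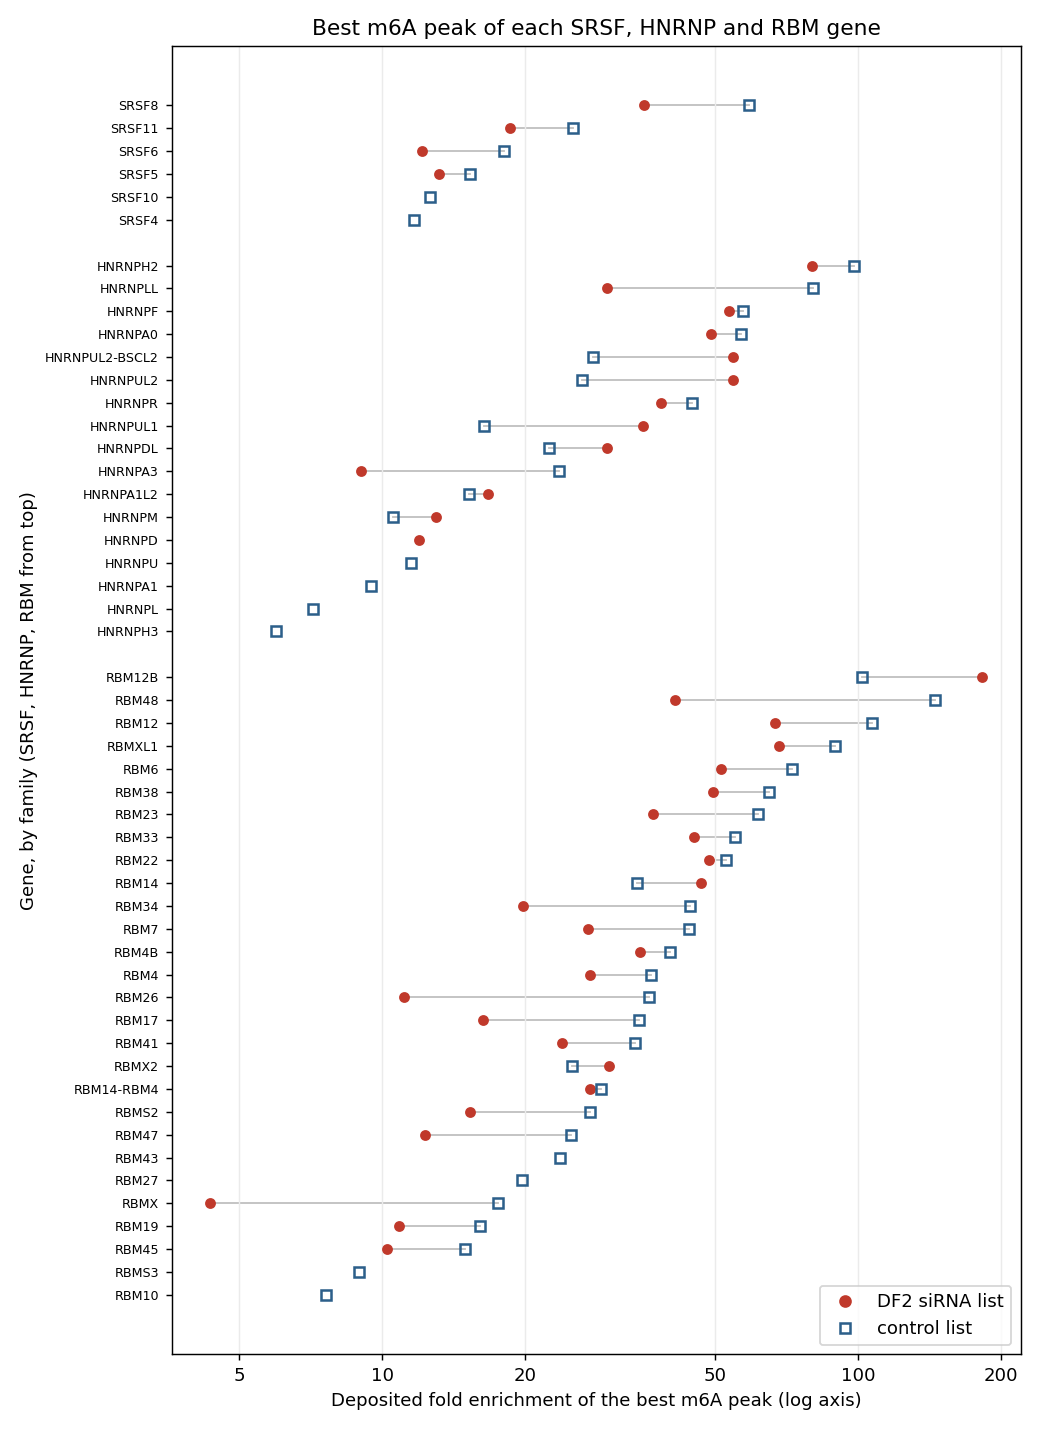
Deposited fold enrichment of the best m6A peak of each of the 51 genes (log axis), with DF2 siRNA as filled circles and control as open squares, and genes ordered within families by the higher value. RBM12B, at 182 in DF2 siRNA cells, and RBM48, at 145 in control cells, lie farthest right, and the SRSF genes lie at 58.9 or lower.

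Among the SR protein genes SRSF4, SRSF5, SRSF6, SRSF8, SRSF10 and SRSF11, peaks were of modest enrichment except in SRSF8. SRSF8, an intronless gene derived from a retrocopy of SRSF2, had in DF2 siRNA cells a peak of 1600 nt over 5′ UTR, coding sequence, stop codon and 3′ UTR (chromosome 11, 95067197 to 95068796) at fold enrichment 35.6 (score 434). In control cells the same stretch was listed as 2 peaks, the first of 400 nt at 16.2 and the second of 1000 nt around the stop codon at 58.9 (scores 195 and 952). Its distal 3′ UTR held a further peak in both, 1200 nt at 14.5 in DF2 siRNA cells and 1600 nt at 24.5 in control cells. The lists thus covered nearly the same sequence of SRSF8, and its extra control peak comes from a gap of 200 nt that only the control list leaves. SRSF2 had no peak under its own symbol. How reads that match both SRSF2 and SRSF8 were assigned is not stated, so the SRSF8 values are uncertain.

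SRSF11 and SRSF6 showed peaks at both ends of the transcript. The stop codon peak of SRSF11 had a fold enrichment of 17.1 in DF2 siRNA cells and 25.2 in control cells (scores 222 and 884). Its start peak, the one with the GGAC shown above, was listed at 18.6 (score 84) in DF2 siRNA cells and at 10.9 (score 93) in control cells. It covered 400 nt in DF2 siRNA cells and reached into coding sequence, and 200 nt labelled 5′ UTR in control cells. SRSF6, an SR protein with a pair of RNA-recognition motifs, had a stop codon peak of 200 nt at 12.2 in DF2 siRNA cells that lay inside a control peak of 600 nt at 18.0. A second peak of SRSF6, 200 nt at the start codon side (chromosome 20, 43457928 to 43458127, fold enrichment 11, −log10 FDR 1.61), had no control counterpart. SRSF5 had the identical stop codon peak of 400 nt in both lists, with 13.2 in DF2 siRNA cells and 15.3 in control cells.

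SRSF10, which turns into a splicing repressor when dephosphorylated on heat shock, and SRSF4 had a peak in control cells only. That of SRSF10 covered 400 nt at the stop codon with a fold enrichment of 12.6 (−log10 p 2.22), and that of SRSF4 200 nt of coding sequence with 11.7 (1.83). Both lie below 2.67, the lower quartile of this value over all control peaks. Over all SRSF peaks the median fold enrichment stood at 14.5 for 7 peaks in DF2 siRNA cells, against 17.7 for all peaks of that list, and at 16.2 for 9 peaks in control cells, against 20.8.

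The hnRNP genes held the peaks with the highest scores of the families, in HNRNPH2, HNRNPF and HNRNPA0. HNRNPH2, a binder of G-rich RNA encoded on the X chromosome, had the identical 800 nt in both lists (chromosome X, 101408295 to 101412710), of which 775 nt form 1 unbroken stretch through the coding sequence to the 3′ UTR. Its fold enrichment was 80.0 in DF2 siRNA cells (percentile 94.8) and 98.4 in control cells (percentile 95). HNRNPF, a relative that also binds G-rich RNA, had the identical peak of 1400 nt at 53.7 in DF2 siRNA cells (score 3659) and 57.3 in control cells (score 6145). These were the highest scores of any member in each list.

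HNRNPA0, an intronless gene whose product binds AU-rich elements, carried a peak at the start and a peak at the end of its coding sequence in both lists. The start-side peak (chromosome 5, 137753577 to 137754376) was listed at 49.2 in DF2 siRNA cells and 40.0 in control cells. The peak around its stop codon (137752577 to 137753376) stood at 42.0 in DF2 siRNA cells and 56.9 in control cells. A further peak, in the 3′ UTR, was in the control list only at 9.81 with a −log10 p of 1.31. HNRNPR, a relative of SYNCRIP, had a stop codon peak of 600 nt at 38.6 in DF2 siRNA cells, inside one of 1000 nt at 44.9 in control cells. A second HNRNPR peak of the control list, at 26.8 with a score of 43, has no feature label and lies 642 nt past the end of the RefSeq gene.

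In HNRNPUL1, HNRNPUL2 and HNRNPDL the peak lay at the 5′ side. HNRNPUL1 and HNRNPUL2 are relatives of HNRNPU, the scaffold attachment factor of the nuclear matrix, and HNRNPDL is a relative of HNRNPD. HNRNPUL2 had the identical 600 nt of 5′ UTR and coding sequence in both lists (chromosome 11, 62726750 to 62727349), at 54.6 (score 254) in DF2 siRNA cells and at 26.3 (score 406) in control cells. Within its list this peak stood at percentile 87.7 in DF2 siRNA cells and 58.5 in control cells. HNRNPUL1 had the identical 800 nt in both, at 35.4 (percentile 76.1) in DF2 siRNA cells and 16.3 (percentile 40.6) in control cells. HNRNPDL had the identical 600 nt, at 29.8 in DF2 siRNA cells and 22.4 in control cells. Percentiles of lists of different length show a place within a list and no change in methylation. HNRNPUL2 also had a 3′ UTR peak of 400 nt at 13.03 in DF2 siRNA cells only.

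HNRNPLL and HNRNPA3 had their shared peak in the 3′ UTR. HNRNPLL, a regulator of CD45 splicing in lymphocytes, had 600 nt of 3′ UTR (chromosome 2, 38581164 to 38581763) at 29.7 (score 48, percentile 70.0) in DF2 siRNA cells and at 80.5 (score 245, percentile 91.5) in control cells. Its second peak, 200 nt at 12.6, lay at the gene's start and was seen in DF2 siRNA cells only. HNRNPA3 had a 3′ UTR peak at 9.03 in DF2 siRNA cells, percentile 16.9, and at 23.5 in control cells, percentile 54.5. The DF2 siRNA peak of HNRNPA3 was the wider of them, 600 nt against 400 nt.

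HNRNPM was the only member in both lists whose own peaks did not overlap, 1 of 40, which is 2.50% (0.0633 to 13.2%) against 1.53% of all genes in both lists. In DF2 siRNA cells its peak lay at the stop codon (chromosome 19, 8483175 to 8485965, fold enrichment 12.97, score 346), and in control cells at the start (8444767 to 8455459, 10.5, score 373). The −log10 FDR of the DF2 siRNA peak was 1.73 and the −log10 p of the control peak 2.96. The lower-ranked hnRNP peaks were split between the lists. HNRNPD, which binds AU-rich elements and promotes mRNA decay, had 400 nt across 5′ UTR and coding sequence at 11.9 (score 115, −log10 FDR 1.67) in DF2 siRNA cells only. In control cells only were HNRNPU at 11.5, HNRNPA1 at 9.49, HNRNPL, a binder of CA repeats, with peaks at 7.17 and 5.83, and HNRNPH3 at 5.98, the last without a feature label and overlapping PBLD. HNRNPU is the member of this group with a high score, 928, over 200 nt at the stop codon, with a −log10 p of 1.47.

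Copies of hnRNP genes complicate 2 pairs. HNRNPA1L2, a retrocopy of HNRNPA1, had its best peak at 16.7 in DF2 siRNA cells and 15.2 in control cells, while HNRNPA1 itself had a 5′ UTR peak in control cells only, which reaches 533 nt beyond the RefSeq gene. RBMXL1, a retrocopy of RBMX (hnRNP G), had 1600 nt at 68.1 (percentile 92.3) in DF2 siRNA cells and 1800 nt at 89.7 (percentile 93.5) in control cells. A control-only peak of RBMXL1 at 5.83 lies outside its RefSeq span and overlaps KYAT3. RBMX itself had a stop codon peak of 600 nt at 17.5 (score 1011) in control cells, the highest score among the 23 control peaks of members without a DF2 siRNA peak on them. The peak that places RBMX in the DF2 siRNA list, at 4.35 with a score of 4, lies 20707 bp beyond the RefSeq gene, has no feature label and overlaps a control peak at 9.57. Inside the RefSeq span, RBMX therefore had a peak in control cells only. The sources used here do not say how reads that match both copies were assigned, so the values of a gene and its copy are uncertain.

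The spliceosome and splicing factors of the RBM family mostly had peaks that carry the stop codon label, which can come from any annotated isoform. RBM48 and RBM41 act in the minor spliceosome, which removes the rare U12-type introns. RBM48 had the identical 800 nt in both lists (chromosome 7, 92529665 to 92535052) at 41.4 (score 229, percentile 80.6) in DF2 siRNA cells and at 145 (score 1096, percentile 99.1) in control cells. The control value was the highest fold enrichment of any member in that list. A second RBM48 peak, 200 nt at 16.1, was in control only. RBM41 had 1 peak in DF2 siRNA cells, 600 nt at 23.9, and 3 in control cells at 33.9, 23.2 and 11.8. Only the first of the control peaks was overlapped.

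RBM22, a core protein of the active spliceosome, had the identical 600 nt at the stop codon in both lists, at 48.7 in DF2 siRNA cells and 52.8 in control cells. RBM23, a relative of RBM39, had the identical 800 nt at 37.0 in DF2 siRNA cells (score 483) and 61.7 in control cells (score 1659). RBM6, a relative of RBM5, had a long peak of 1600 nt at 51.6 in DF2 siRNA cells, with 1443 nt unbroken, and of 1800 nt at 72.9 in control cells, with 1551 nt unbroken. RBM17, which recognises 3′ splice sites, had 400 nt at 16.3 in DF2 siRNA cells inside 600 nt at 34.6 in control cells, and a 3′ UTR peak at 9.83 in control only. RBM10, another relative of RBM5, had 200 nt of 5′ UTR at 7.63 in control cells only, with a −log10 p of 1.33, the lowest among the members in control only. RBMX2 had the identical stop codon peak at 30.01 in DF2 siRNA cells and 25.1 in control cells.

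RBM4, RBM4B and RBM14 lie side by side on chromosome 11, and a readthrough transcript, RBM14-RBM4, joins a pair of them. RBM4 and RBM4B regulate alternative splicing. RBM14 had 3 peaks with identical intervals in both lists, at the start (18.9 in DF2 siRNA cells and 18.3 in control cells), around the stop codon (46.8 in DF2 siRNA cells and 34.4 in control cells) and in the 3′ UTR (16.5 in DF2 siRNA cells and 15.5 in control cells). RBM4 had a peak at 27.4 in DF2 siRNA cells and 28.6 in control cells over an identical interval, and another of 400 nt at 22.9 in DF2 siRNA cells inside 1000 nt at 36.8 in control cells. RBM4B had 2072 nt at 34.8 in DF2 siRNA cells and 40.3 in control cells over an identical interval, and a minor peak at 9.87 in DF2 siRNA cells and 11.9 in control cells. The peaks of RBM14-RBM4 repeat those of RBM14 and RBM4, with 27.3 as its highest value in DF2 siRNA cells and 28.9 in control cells. Likewise HNRNPUL2-BSCL2 was listed with a peak that overlaps that of HNRNPUL2, at 54.7 in DF2 siRNA cells and 27.7 in control cells. The readthrough names thus add 3 peaks in DF2 siRNA cells and 2 in control cells that are not separate sites.

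**Figure D2:**
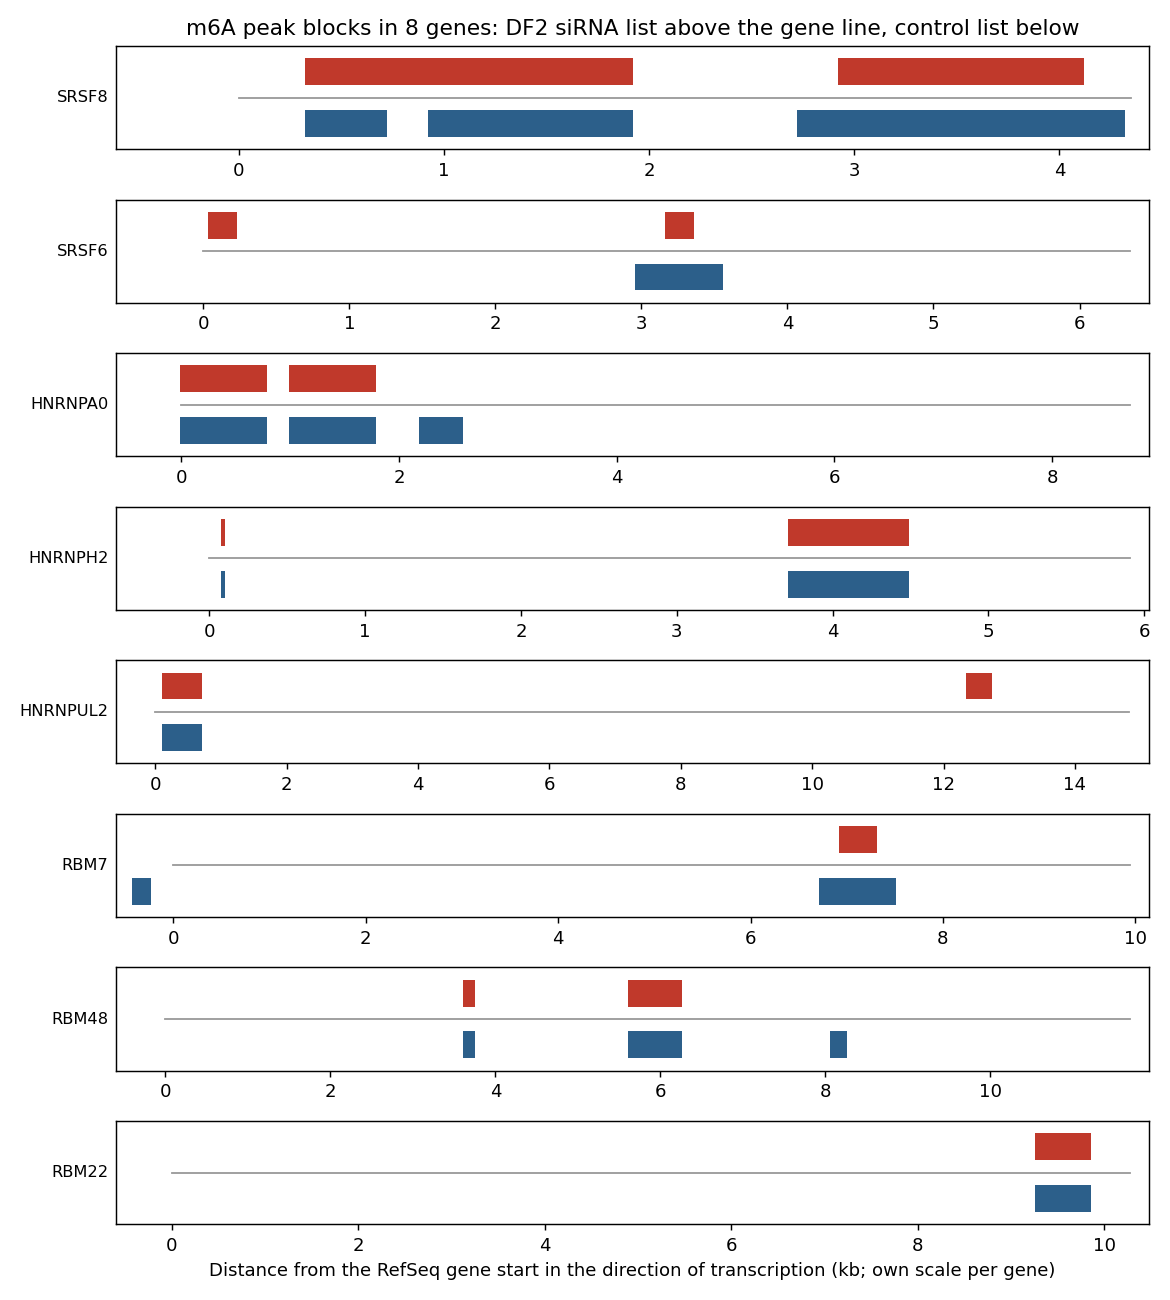
Peak blocks in 8 genes by distance from the RefSeq gene start in the direction of transcription (kb, own scale per gene), DF2 siRNA above the gene line and control below. HNRNPH2 and RBM22 have identical blocks in both lists, SRSF6 and HNRNPUL2 have a block in DF2 siRNA cells only, and HNRNPA0, RBM7 and RBM48 have one in control cells only.

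Among genes of RNA decay and ribosome assembly, RBM7, the RNA-binding subunit of the NEXT complex that feeds nuclear RNA to the exosome, had a stop codon peak of 400 nt at 27.0 in DF2 siRNA cells inside 800 nt at 44.3 in control cells. A control-only peak assigned to RBM7, at 7.31, lies 237 nt before the RefSeq start. RBM26 and RBM27 are related proteins linked to nuclear RNA decay. RBM26 had its stop codon peak at 10.8 (score 58, percentile 25.3) in DF2 siRNA cells and at 36.4 (score 300, percentile 69.5) in control cells, and a 5′ UTR peak at 11.1 in DF2 siRNA cells only. RBM27 had a stop codon peak in control cells only, at 19.7 with a score of 213. RBM38, a p53 target that binds AU-rich elements, had the identical 800 nt at 49.6 in DF2 siRNA cells and 65.1 in control cells, and a second 3′ UTR peak at 10.3 in DF2 siRNA cells only. RBM19, needed for processing of ribosomal RNA, had 10.8 in DF2 siRNA cells and 10.4 over an overlapping peak in control cells, with a further control peak at 16.1. RBM34 had a stop codon peak at 19.8 in DF2 siRNA cells and 44.5 in control cells.

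RBM12B and RBM12, large proteins with several RNA-recognition motifs, had wide peaks of high fold enrichment. RBM12B had 3000 nt in 1 unbroken stretch in DF2 siRNA cells, at 182 (score 1312), the top value of any member, at percentile 99.8. In control cells it had 3200 nt at 102 (score 2454, percentile 95.6), which extended across upstream exons into the 5′ UTR. RBM12 had the identical 2682 nt in both lists, at 67.0 (score 799) in DF2 siRNA cells and at 107 (score 2861) in control cells. Its 5′ part overlaps CPNE1, with which it shares a start region.

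Of the remaining RBM genes, RBM33 had 3 peaks in DF2 siRNA cells, the highest at 45.3, and 2 in control cells at 55.1 and 34.3. All 5 overlapped a peak of the other list. RBM47, a partner of the editing enzyme APOBEC1, had 3 peaks at 12.3, 10.3 and 4.93 in DF2 siRNA cells and 2 at 24.9 and 13.4 in control cells. Only the first of each list overlapped. RBM45 had the identical start peak at 10.2 in DF2 siRNA cells and 14.9 in control cells. RBM43 had 600 nt of coding sequence in control cells only, at 23.7 with a −log10 p of 6.84, the largest fold enrichment among the 10 members in control only. RBMS2 and RBMS3 bind single-stranded nucleic acid. RBMS2 had a stop codon and 3′ UTR peak at 15.3 in DF2 siRNA cells, overlapped by a 3′ UTR peak at 27.4 in control cells, and RBMS3 a 5′ UTR peak in control cells only, at 8.96 with a score of 9.

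Peaks of the families overlapped between the conditions at about the rate of all peaks. Of the 60 DF2 siRNA peaks, 51 overlapped a same-strand control peak by 1 exonic base or more, 85.0% (73.4 to 92.9%), against 87.5% of all DF2 siRNA peaks. Of the 73 control peaks, 50 were overlapped, 68.5% (56.6 to 78.9%), against 71.9% of all. Identical intervals numbered 23, which is 38.3% of the members' DF2 siRNA peaks, against 35.1% of all DF2 siRNA peaks, and 31.5% of their control peaks, against 29.5% of all control peaks. The 9 DF2 siRNA peaks without a partner had fold enrichments of 4.93 to 13.03 (median 11.1), and the 51 with one had 4.35 to 182 (median 27.0). The 23 control peaks without a partner had 5.83 to 26.8 (median 11.5), and the 50 with one had 7.25 to 145 (median 31.4). Over all peaks the median without and with a partner was 9.96 and 20.3 in the DF2 siRNA list and 10.04 and 30.4 in the control list. The unshared peaks thus had the lower median in both lists, among members as among all peaks. Exceptions among the control peaks were those of HNRNPR (26.8), RBM43 (23.7) and RBM41 (23.2), which lay above the median of all control peaks.

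Most peaks of the families carried the stop codon label in both lists. The stop codon label was given to 38 of 60 peaks in DF2 siRNA cells, 63.3% (49.9 to 75.4%), against 43.7% of all peaks, and to 39 of 73 in control cells, 53.4% (41.4 to 65.2%), against 42.7%. The control interval includes the share of all peaks, and the DF2 siRNA interval does not. The 5′ UTR label was given to 24 of 60 member peaks in DF2 siRNA cells, 40.0% (27.6 to 53.5%), against 25.9% of all peaks, and to 26 of 73 in control cells, 35.6% (24.7 to 47.7%), against 24.3%. The share of all peaks lies just below both intervals. The non-coding label was given to 1 peak in each list, at HNRNPA1L2, which is 1.67% in DF2 siRNA cells, against 11.8% of all peaks, and 1.37% in control cells, against 15.5%. All members but HNRNPUL2-BSCL2 are protein-coding genes in RefSeq. The shares of all peaks also count peaks with the non-coding label, so the sets compared are unlike. Shares over peaks of protein-coding genes alone were not computed. No excess of the stop codon, coding or 5′ UTR label can therefore be read as particular to the families. Among peaks of 400 nt or less, 13 of 25 member peaks had the stop codon label in DF2 siRNA cells, 52% (31.3 to 72.2%), against 25% of all such peaks. In control cells 8 of 31 had it, 25.8% (11.9 to 44.6%), against 22.5% of all such peaks. The intervals of the lists overlap. The coding label was given to 83.3% (71.5 to 91.7%) of member peaks in DF2 siRNA cells, against 66.4% of all, and to 71.2% (59.4 to 81.2%) in control cells, against 61.7%. The 3′ UTR label was given to 63.3% in DF2 siRNA cells, against 55.0% of all, and to 61.6% in control cells, against 55.2%. No label was given to 1 member peak in DF2 siRNA cells (1.67%, all peaks 1.86%) and 3 in control cells (4.11%, all peaks 2.4%). The peaks of 1 gene are not independent of each other, so these intervals are too narrow. Peaks that cross an exon junction numbered 30 of 60 in DF2 siRNA cells (interval 36.8 to 63.2%), against 41.9% of all DF2 siRNA peaks. In control cells they were 27 of 73, 37.0% (26 to 49.1%), against 46.3% of all control peaks. At least 2 peaks were listed for 16 of 41 genes in DF2 siRNA cells and 19 of 50 in control cells, against 37.4% of all genes of the DF2 siRNA list and 38.9% of the control list.

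**Figure D3:**
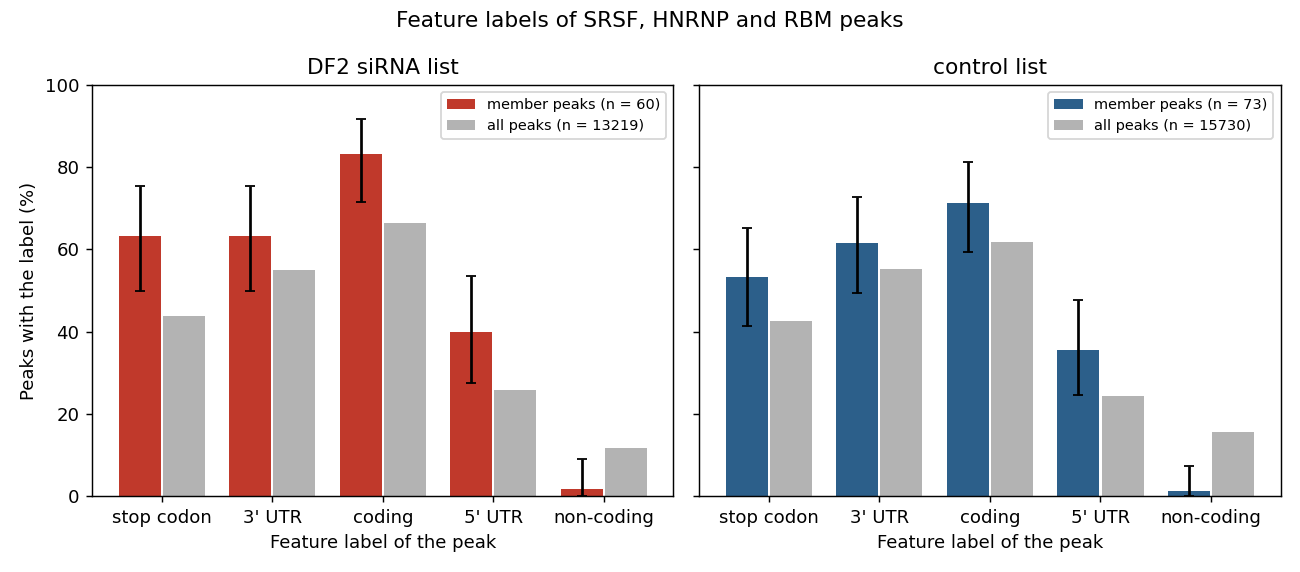
Share of peaks with each feature label (%), members as coloured bars with 95% exact binomial intervals and all peaks as grey bars, DF2 siRNA list on the left and control list on the right. A peak can carry several labels, and all peaks include those with the non-coding label. The stop codon bar of members stands at 63.3% for DF2 siRNA, against 43.7% for all peaks, and at 53.4% for control, against 42.7%.

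Fold enrichment of the families as a whole sat near the middle of each list. The median was 19.3 for the 60 peaks of DF2 siRNA cells, against 17.7 for all peaks, and 23.5 for the 73 peaks of control cells, against 20.8. Of the member peaks, 55.0% in DF2 siRNA cells and 53.4% in control cells lay in the upper 50% of their list, which by construction holds 50% of all peaks. Their median score was 178 in DF2 siRNA cells and 306 in control cells, against 74 for all DF2 siRNA peaks and 143 for all control peaks. By family, the median of the best peak per gene in DF2 siRNA cells was 15.9 for 4 SRSF, 35.4 for 13 HNRNP and 28.7 for 24 RBM genes. In control cells it was 16.7 for 6 SRSF, 22.9 for 16 HNRNP and 35.5 for 28 RBM genes. The medians of the lists thus rest on different genes, and the control median of HNRNP includes 4 genes in control only.

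Within the families the more enriched peaks tended to have longer unbroken exonic sequence. The longest unbroken stretch of the best peak had a median of 1000 nt (600 to 3000 nt) in the 8 most enriched genes of DF2 siRNA cells and of 452 nt (200 to 1600 nt) in the other 33. In control cells it was 1100 nt (600 to 2600 nt) in the 8 most enriched genes and 482 nt (200 to 1000 nt) in the other 42. Across genes, Spearman's rho between this stretch and fold enrichment was 0.78 for 41 members in DF2 siRNA cells and 0.69 for 50 in control cells. It was 0.51 for all 8556 genes of the DF2 siRNA list and 0.57 for all 9971 genes of the control list. Both measures come from the same peak, and total peak width gave 0.76 for the members in DF2 siRNA cells and 0.77 in control cells, so unbroken length and width were not separated.

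**Figure D4:**
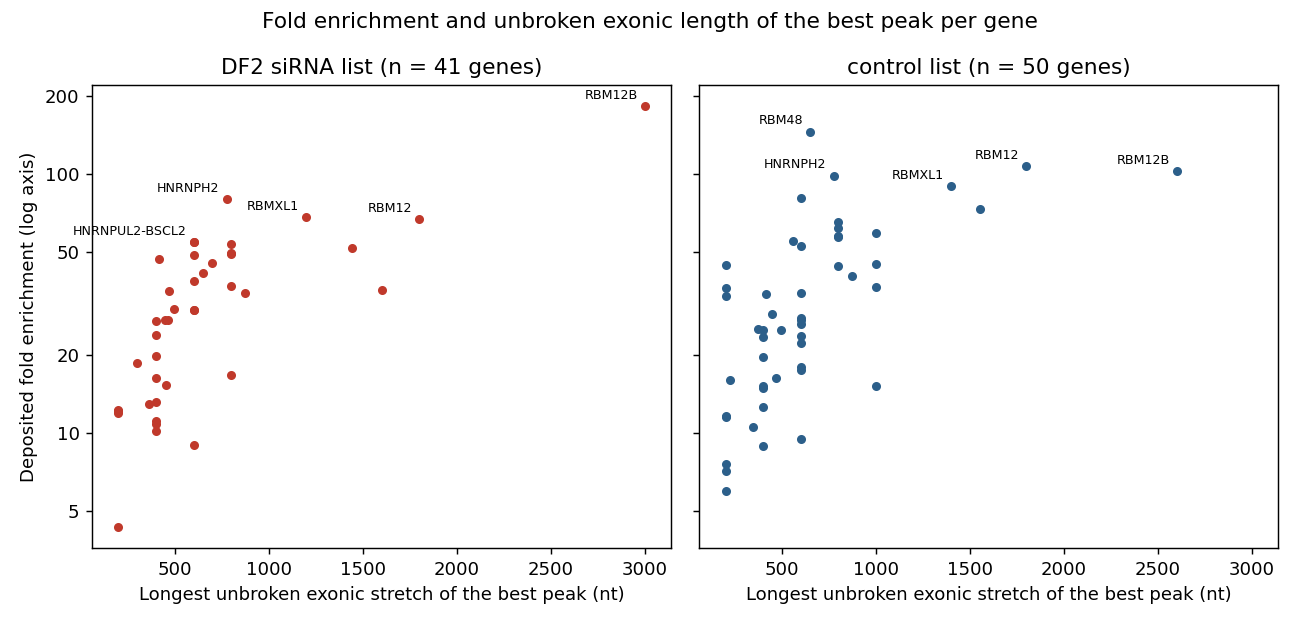
Fold enrichment (log axis) against the longest unbroken exonic stretch (nt) of the best peak per gene, for 41 genes in DF2 siRNA cells on the left and 50 in control cells on the right. RBM12B lies at 3000 nt and 182 on the left and at 2600 nt and 102 on the right, and RBM48 stands above its neighbours of like length in control cells.

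Splicing genes outside these families were also compared by presence. Of 61 such genes, 34 had a peak in either list, 26 of them in both, 5 in DF2 siRNA only and 3 in control only. For comparison, 39.6% of all protein-coding symbols had a peak in either list. Of all 10577 genes with a peak, 75.2% had one in both lists, 5.73% in DF2 siRNA only and 19.1% in control only. A difference from these shares was not tested. The 4 highest of the DF2 siRNA list were U2AF2, the large subunit of the 3′ splice site factor (110 in DF2 siRNA cells and 92.7 in control cells), SYNCRIP (90.8 in DF2 siRNA cells and 32.4 in control cells), the speckle protein SON (78.2 in DF2 siRNA cells and 107 in control cells) and CELF1 (58.2 in DF2 siRNA cells and 30.3 in control cells). The 4 highest of the control list were SON again, MBNL2 (46.7 in DF2 siRNA cells and 119 in control cells), ESRP2 (54.0 in DF2 siRNA cells and 111 in control cells) and TARDBP (41.9 in DF2 siRNA cells and 94.0 in control cells). In DF2 siRNA only were SNRNP70, a protein of the U1 particle (20.2), TAF15 (12.7), TIA1 (10.2), SF3A2 (4.93) and the SR protein kinase gene CLK2 (4.35). Among those in control only were SRRM1 (14.4) and RBFOX2 (10.7).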

How the data were processed

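The submitters' processing notes name HISAT2 and the build hg38. The sources used here do not give the peak caller, the annotation or how strand was handled. Each condition has 1 list of peaks from the authors. Fold enrichment, as deposited, is a ratio without a stated denominator. The −log10 column, per the file headers, refers to an FDR for DF2 siRNA and to a p-value for control. The score, as deposited, is a whole number without a stated meaning.

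Peak width counts distinct exonic bases, and abutting blocks were joined to measure unbroken stretches. Overlap needed at least 1 shared exonic base on the same strand. All 51 names matched RefSeq symbols of GRCh38.p14. The overlap procedure was run on the control list against itself, with a random part of the peaks moved far away. It found the peaks left in place and no others. Partial overlap, strand and gaps between exons were not covered by that check. Coordinates count from 1. Scripts ran under Python 3.11.15 (pandas 2.3.3; scipy 1.17.1 for the intervals; figures with matplotlib 3.10.9).

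Members, lists and comparisons were chosen with earlier results of these data known. All SRSF and HNRNP genes were named, as were RBM genes among the 8 highest per list, in 1 list only, or differing most in peak number, ties included. This gave 22 RBM genes, and the other 6 were named after their values were seen. Of the other splicing genes, those in 1 list only and the 4 highest per list were named, except where a result is not reported here. Sequences other than gene starts were not analysed here.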

Additional observations from a re-analysis of the deposited data

How the results depend on the processing

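Of 103 values under alternatives, 88 moved by less than counting error, or by less than 1.5 times for a count. Some of these could not move. Counting every label repeats the main count, and equal list lengths leave the shorter DF2 siRNA list as it is. The total is therefore no measure of robustness. The share of member peaks overlapped by the other list stayed within its interval in all 11 alternatives of each list. With a p or FDR 100 times smaller, member peaks numbered 36 in DF2 siRNA and 48 in control, with median fold enrichments of 35.5 in DF2 siRNA and 34.1 in control. In the upper 50% by fold enrichment they numbered 33 in DF2 siRNA (median 37.0, stop codon share 78.8%) and 39 in control (median 36.8, stop codon share 71.8%), and 6 genes were in control only. The same shares over all peaks and genes were not computed at this cut, so these values cannot be set against those of the full lists. Equal list lengths, reached by keeping the control peaks of highest fold enrichment, also gave 6 in control only. With 2 peaks or more per gene, 10 genes were in both lists, 6 in DF2 siRNA only and 9 in control only. The shares of all genes were not computed for that setting. Limited to widths up to 400 nt, stop codon shares were 52% in DF2 siRNA and 25.8% in control. The first 2 limits remove weak peaks, which raises medians by construction. Equal list lengths remove weak control peaks only, so by construction the number in control only can fall but not rise. For the others the cause was not tested. Counting every label leaves the stop codon share as it is. Chosen with the data in view were a lower limit on the score (10 in DF2 siRNA and 23.5 in control), leaving out the retrocopies HNRNPA1L2, RBMXL1 and SRSF8, and leaving out peaks outside the RefSeq gene. Without the last, RBMX was in control only, with 39 genes in both lists and 11 in control only. No paired analysis was possible because each condition has 1 peak list for both libraries, and no library could be left out. Depth is unknown and limits every absence.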
